A study of Mus musculus with 2 samples.

Results

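The genes described here code for fibronectin (*Fn1*), periostin (*Postn*) and 8 further secreted glycoproteins of the extracellular matrix, namely *Tnc*, *Sparc*, *Spp1*, *Thbs1*, *Thbs2*, *Thbs3*, *Tgfbi* and *Ecm1*. They were found by gene symbol, and all 10 were among the 21829 symbols of the expression files. The members were chosen from matrix glycoprotein genes with the values of both libraries already known, so the contrast between the libraries is a description and was not tested. The measurements are 2 libraries of polyadenylated RNA from C2C12, an immortalised mouse myoblast line, 1 from wild-type (WT) cells and 1 from cells labelled GNE KO. Both lines were grown in the same medium with fetal bovine serum and gentamicin, and the labels name no further treatment. The methods describe the KO as an indel in exon 2 of *Gne* made with CRISPR–Cas9 that gives a premature stop codon, in single clones checked by Sanger sequencing. With 1 library per line, no difference between them has a replicate check, and the genotype and the clone cannot be told apart.

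*Gne* codes for the enzyme that starts the synthesis of sialic acid, a sugar that commonly ends the glycans of secreted glycoproteins. Matricellular proteins are secreted into the matrix but serve mainly to modulate how cells attach, migrate and respond to growth factors, rather than to carry load. Fibronectin, by contrast, forms fibrils on which collagens and other matrix proteins assemble. In skeletal muscle, several of these proteins are known for their induction in injury, regeneration and fibrosis. The values below measure RNA and give no information on the protein or on its glycans.

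Values were taken as FPKM, fragments scaled by transcript length and sequencing depth, a scale on which the levels of different genes can be set side by side. The files name no unit, and the scale was inferred from the values. The methods name TPM among the quantities computed, and for a TPM table cut to part of its genes the ratios between libraries would still hold, up to 1 factor shared by all genes. The values summed to 568543 FPKM in WT and to 574253 FPKM in the KO-labelled library. Depth was estimated from genes with 1 transcript, as the median of value times length in kb within a window of 0.02 to 0.055. For values in FPKM, this gave a rough depth of 27300000 fragments for WT and 23700000 fragments for the KO-labelled library. The window was set after the values were seen and bounds the result. *Gne* itself was 6.67 FPKM in WT and 7.34 FPKM in the KO-labelled library, so the RNA level of the edited gene is no check of the labels. A fold change is given on the scale of log2(FPKM + 1), KO-labelled library minus WT, which understates differences between low values, and 2-fold means a difference of 1 on that scale. A filter kept the 10542 genes whose mean over both libraries reached 1 FPKM. Their median log2 fold change was 0.0061, with quartiles of -0.21 and 0.23.

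RNA of the members was measured over a wide range of levels. In the WT library the order of levels was *Spp1*, *Sparc*, *Ecm1*, *Fn1*, *Thbs1*, *Thbs3*, *Tnc*, *Thbs2*, *Postn* and *Tgfbi*, the last of which was listed at 0. In the KO-labelled library, *Fn1* stood above *Ecm1*, and *Thbs2* and *Postn* stood above *Tnc* and *Thbs3*. Whether neighbours in either order differ beyond the spread between cultures is unknown with single libraries. The summed value of the members was 2674 FPKM in WT, or 0.470% of all FPKM, and 3518 FPKM in the KO-labelled library, or 0.613%. *Spp1* alone made up 57.1% of the sum in WT and 62.5% in the KO-labelled library, and *Sparc* made up 25.4% and 19.5%. The other members together therefore held a minor share of this RNA in both libraries. In bulk RNA, fewer cells of a type and less RNA per cell cannot be told apart.

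**Figure D1:**
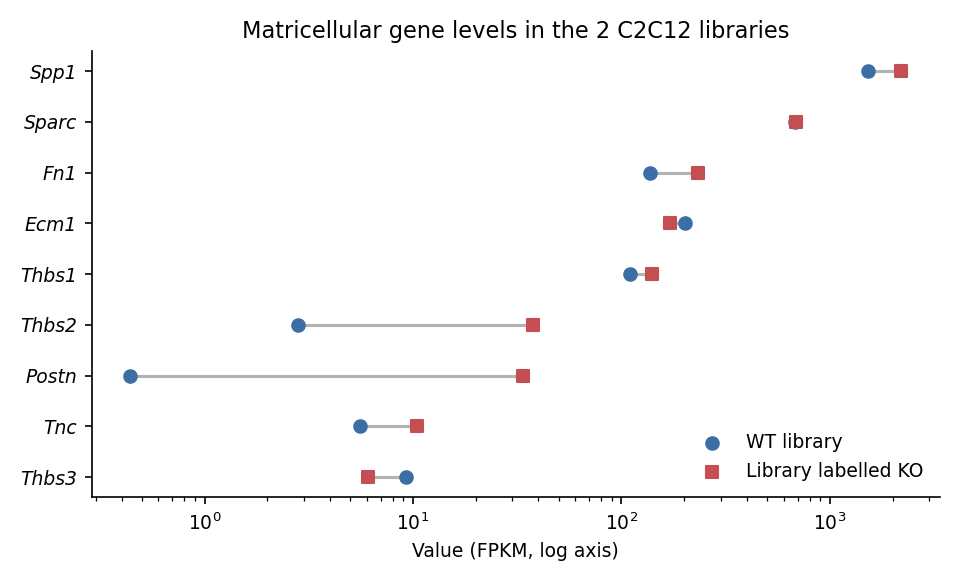
FPKM values (log axis) of the 9 members above 0 in the WT library (circles) and in the KO-labelled library (squares), with 1 library per line and a grey line joining the pair. *Spp1* and *Sparc* sit at the top in both libraries, and the widest gaps are those of *Postn* (0.440 and 33.9 FPKM) and *Thbs2* (2.80 and 37.8 FPKM).

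Past the filter were 9 members, of which 2 exceeded a 2-fold higher value in the KO-labelled library and 0 a 2-fold lower one, against 2.84% and 3.43% of all genes past the filter. Values were higher by any amount for 7 members and lower for 2, where 50.7% of all genes were higher. The 7 include *Sparc*, whose sign turned with another scaling, as given with its values. The median log2 fold change of the 9 members was 0.53, beside 0.0061 for all genes. Because the choice of members used this contrast, nothing is read from the counts or the median.

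*Postn*, which codes for periostin, a fasciclin-domain protein that binds collagen and integrins, was 0.440 FPKM in WT and 33.9 FPKM in the KO-labelled library. The ratio of the values was 77.0 and the log2 fold change was 4.60, at rank 5 of 10542 genes ordered from the highest. The WT value corresponds to roughly 38 fragments on a transcript of 3166 bases, and the other value to roughly 2544. By level the WT value ranked 11012 among all symbols, where 13721 entries of the WT file were above 0, and the value of the KO-labelled library ranked 2754. In GRCm39 *Postn* spans 54268501 to 54298471 on the plus strand of chromosome 3 (ENSMUSG00000027750.18 in GENCODE vM39).

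*Thbs2* codes for thrombospondin-2, a trimeric protein that binds matrix metalloproteinases and is cleared through the receptor Lrp1. It was 2.80 FPKM in WT and 37.8 FPKM in the KO-labelled library, a ratio of 13.5 and a log2 fold change of 3.35, at rank 20. The values correspond to roughly 454 and 5315 fragments. *Thbs2* spans 14885761 to 14914528 on the minus strand of chromosome 17 in GRCm39 (ENSMUSG00000023885.11). It and *Postn* were the only members past the 2-fold line, and both came from low WT values.

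The stretches around the start sites of these genes are shown because *Postn* and *Thbs2* had the widest differences, and *Thbs3* is given as the thrombospondin with a lower value in the KO-labelled library. Each run holds 300 bases of the RefSeq promoter table, 5′ to 3′ on the gene's strand, in build GRCm38.p6, whose coordinates are not interchangeable with those of GRCm39 above. Capitals mark matches, on either strand, to the TATA box core (TATAAA), the GC box core (GGGCGG), the AP-1 motif (TGANTCA), the Smad-binding core (CAGAC), the TEAD motif (GGAATG) or an E-box (CAGCTG).
Postn, second listed start site, chr3:54360857-54361156, plus strand: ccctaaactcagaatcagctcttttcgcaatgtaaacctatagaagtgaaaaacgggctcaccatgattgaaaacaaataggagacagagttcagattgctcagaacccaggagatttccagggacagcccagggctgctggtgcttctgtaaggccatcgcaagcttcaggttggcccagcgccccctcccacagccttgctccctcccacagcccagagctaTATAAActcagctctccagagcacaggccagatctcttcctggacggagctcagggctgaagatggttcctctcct
Thbs2, chr17:14694213-14694512, minus strand: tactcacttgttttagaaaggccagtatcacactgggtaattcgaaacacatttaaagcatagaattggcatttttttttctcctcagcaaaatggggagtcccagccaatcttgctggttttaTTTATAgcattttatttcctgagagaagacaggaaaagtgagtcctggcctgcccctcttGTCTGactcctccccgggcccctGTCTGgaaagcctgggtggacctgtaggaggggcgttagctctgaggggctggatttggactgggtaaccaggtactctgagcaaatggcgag
Thbs3, chr3:89214930-89215229, plus strand: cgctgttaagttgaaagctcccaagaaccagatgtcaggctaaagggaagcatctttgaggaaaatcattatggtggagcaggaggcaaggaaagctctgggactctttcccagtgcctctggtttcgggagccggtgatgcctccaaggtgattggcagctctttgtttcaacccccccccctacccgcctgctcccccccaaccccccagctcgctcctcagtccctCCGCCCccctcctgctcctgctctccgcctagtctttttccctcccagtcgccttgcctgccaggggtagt

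In the *Postn* stretch TATAAA begins at -26, counted from +1 at the start site. The other listed start site of *Postn*, not printed, held CAGAC at -191 and no TATAAA. In *Thbs2* the match to TATAAA is on the opposite strand at -126, and CAGAC is matched on the opposite strand at -66 and -43. *Thbs3* held GGGCGG on the opposite strand at -21 and no TATAAA.

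Of the members, 8 had an entry in the promoter table, and *Fn1* and *Thbs1* had none. TATAAA was found for 5 of the 8 (*Postn*, *Tnc*, *Spp1*, *Thbs2* and *Ecm1*), against 15.7% of 27025 genes. The search set no position for a match. TATAAA began at -26 in *Postn* and -27 in *Ecm1*, but at -126 in *Thbs2* and -211 in *Spp1*. In *Tnc* it began at -126 and -205 from the first and second listed start sites. CAGAC was found for 7 of the 8, all but *Thbs3*, against 53.2% of genes. GGGCGG was found for 4 (*Tnc*, *Thbs3*, *Tgfbi* and *Ecm1*), against 38.2%. The AP-1 motif TGANTCA was found in *Ecm1* alone among the 8, against 8.97% of genes, and the E-box CAGCTG, a form bound by myogenic factors, in *Sparc* alone, against 18.3%. GGAATG was found in 0 of 8, against 16.6%. Genes with several listed start sites, such as *Postn*, *Tnc* and *Spp1*, had more than 1 stretch searched. These matches describe letters in the sequence and are not evidence of binding. Of the 5 members with TATAAA, *Ecm1* had a lower value in the KO-labelled library. The part of any motif in the differences between the libraries was not tested.

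The other thrombospondins did not share the size of the *Thbs2* difference. *Thbs1*, which codes for a trimeric protein that activates latent TGF-beta and binds Cd47, was 110.5 FPKM in WT and 140.0 FPKM in the KO-labelled library, a log2 fold change of 0.34. *Thbs3*, which belongs to the pentameric subgroup, was 9.21 FPKM in WT and 6.09 FPKM in the KO-labelled library, a log2 fold change of -0.53. Within the family the values thus ran in both directions. The 3 genes summed to 123 FPKM in WT and 184 FPKM in the KO-labelled library. *Thbs1* supplied 90.2% of the sum in WT and 76.1% in the KO-labelled library, while the share of *Thbs2* was 2.29% and 20.6% and that of *Thbs3* was 7.52% and 3.31%. *Thbs1* was therefore the main thrombospondin RNA of both lines. In GRCm39, *Thbs1* spans 117941974 to 117957616 on the plus strand of chromosome 2 (ENSMUSG00000040152.10). *Thbs3* spans 89122461 to 89134144 on the plus strand of chromosome 3 (ENSMUSG00000028047.13).

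*Fn1* codes for fibronectin, the ligand of the integrin formed by Itga5 and Itgb1. It was 138 FPKM in WT and 232 FPKM in the KO-labelled library, a ratio of 1.69 and a log2 fold change of 0.75, at rank 523. *Tnc*, which codes for tenascin-C, a hexameric protein of developing and injured tissue that modulates adhesion to fibronectin, was 5.55 FPKM in WT and 10.4 FPKM in the KO-labelled library, a ratio of 1.88 and a log2 fold change of 0.80, at rank 467. Both stood inside the 2-fold line, and *Fn1* was far above *Tnc* in level in both libraries. *Fn1* spans 71624673 to 71692419 on the minus strand of chromosome 1 (ENSMUSG00000026193.17) and *Tnc* spans 63878014 to 63965443 on the minus strand of chromosome 4 (ENSMUSG00000028364.17), both in GRCm39.

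*Spp1* codes for osteopontin, a phosphorylated integrin and Cd44 ligand. It was 1525.5 FPKM in WT and 2199.5 FPKM in the KO-labelled library, ranks 50 and 25 of all symbols by level, with a log2 fold change of 0.53. *Sparc*, which codes for a collagen-binding protein also called osteonectin, was 679 FPKM in WT and 687.5 FPKM in the KO-labelled library. Its log2 fold change of 0.018 changed sign, to -0.0089, when the libraries were scaled by the upper quartile, so no direction is given for it. *Ecm1*, which codes for extracellular matrix protein 1, a binding partner of perlecan, was 203 FPKM in WT and 171 FPKM in the KO-labelled library, a log2 fold change of -0.24. The 3 most abundant members in WT thus spanned both signs within a narrow range of fold changes. *Spp1* lies on chromosome 5 from 104582165 to 104589235 on the plus strand (ENSMUSG00000029304.16). *Sparc* lies on chromosome 11 from 55285317 to 55314067 (ENSMUSG00000018593.15) and *Ecm1* on chromosome 3 from 95640761 to 95646943 (ENSMUSG00000028108.18), both on the minus strand, in GRCm39.

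*Tgfbi*, the closest relative of periostin among the members, was listed at 0 in both libraries and did not pass the filter. It spans 56757336 to 56787375 on the plus strand of chromosome 13 in GRCm39 (ENSMUSG00000035493.12). An exact 0 without counts can be a failed estimate, and 7356 symbols were listed at 0 in both libraries. Among 80 ribosomal protein genes, which nearly all cells use, 2 were at 0 in both, *Rpl10l* and *Rpl39l*, paralogs known mainly from testis.

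**Figure D2:**
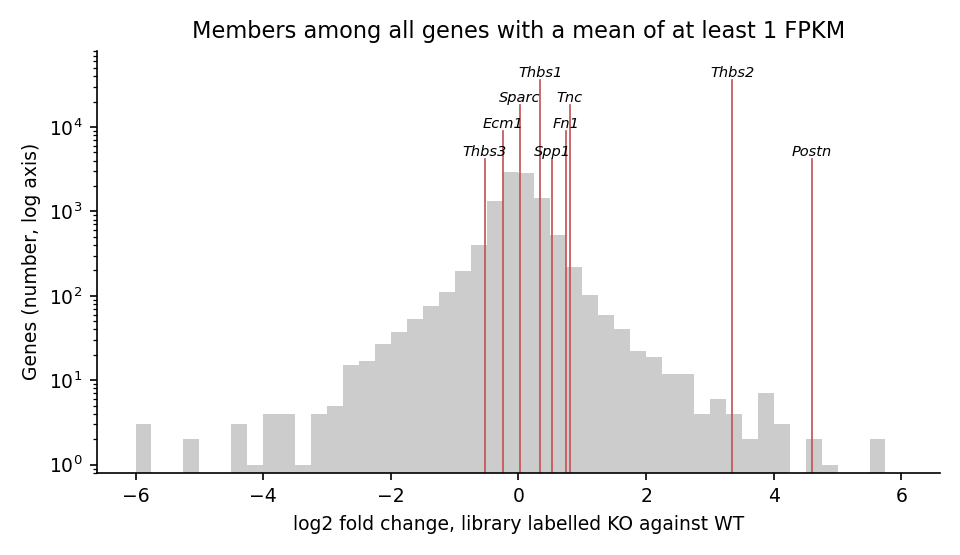
Number of genes (log axis) in bins of log2 fold change, KO-labelled library against WT, for the 10542 genes past the filter (grey), with a red line at each of the 9 members past the filter. *Postn* (4.60) and *Thbs2* (3.35) sit in the right tail, while the other 7 members lie between -0.53 and 0.80.

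**Figure D3:**
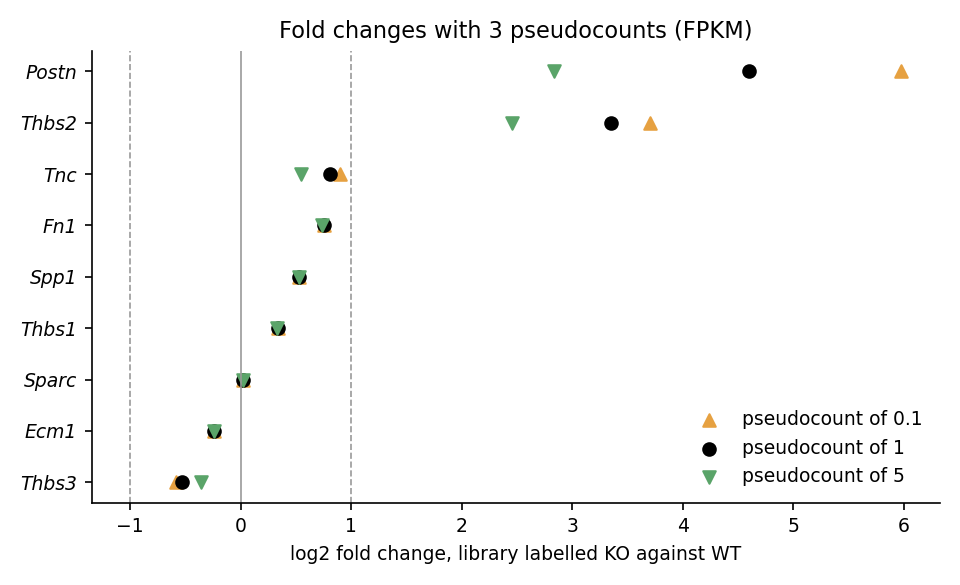
log2 fold change of each member, KO-labelled library against WT, with 3 pseudocounts in FPKM, and dashed lines at 2-fold. *Postn* runs from 2.84 to 5.98 and *Thbs2* from 2.46 to 3.71 over the pseudocounts, and both stay past the line with each of them.

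The fold change of each member was set beside those of the genes around it on the chromosome. Neighbours are genes past the filter whose start lies within 1 Mb. The 9 neighbours of *Postn* had a median log2 fold change of 0.33, and 0 of them were beyond 2-fold. The 10 neighbours of *Thbs2* had a median of 0.080, and 1 was beyond 2-fold. That neighbour was *Smoc2*, which codes for a matricellular protein of the Sparc family and starts 415 kb from *Thbs2*. It was 0.406 FPKM in WT and 6.92 FPKM in the KO-labelled library, a log2 fold change of 2.49. *Dact2*, which starts 490.0 kb from *Thbs2* on the same side, was 7.44 and 8.66 FPKM, a log2 fold change of 0.19, and was chosen after its value was seen.

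The 4 neighbours of *Tnc* were all lower in the KO-labelled library, from -0.82 for *Tnfsf15* to -0.38 for *Tmem268*, with a median of -0.65. *Tnc* minus that median was 1.46, past the 2-fold line, whereas its own log2 fold change was inside it. The 6 neighbours of *Spp1* had a median of 0.40, and 2 of them, *Hsd17b11* at 1.17 and *Lrrc8b* at 1.14, were beyond 2-fold. *Spp1* minus the median of its neighbours was 0.12. *Postn*, *Thbs2* and *Fn1* minus their neighbours were 4.27, 3.27 and 0.82. *Thbs3* and *Ecm1*, with 50 and 47 neighbours, were -0.58 and -0.24 after the same subtraction, and *Thbs1* and *Sparc*, with 15 and 11, were 0.42 and 0.030. *Postn* and *Thbs2* led the order by fold change with or without the subtraction. Medians of neighbours ran only from -0.65 to 0.40, too little to displace them. After the subtraction *Spp1*, at 0.12, stood below *Thbs1*, at 0.42.

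**Figure D4:**
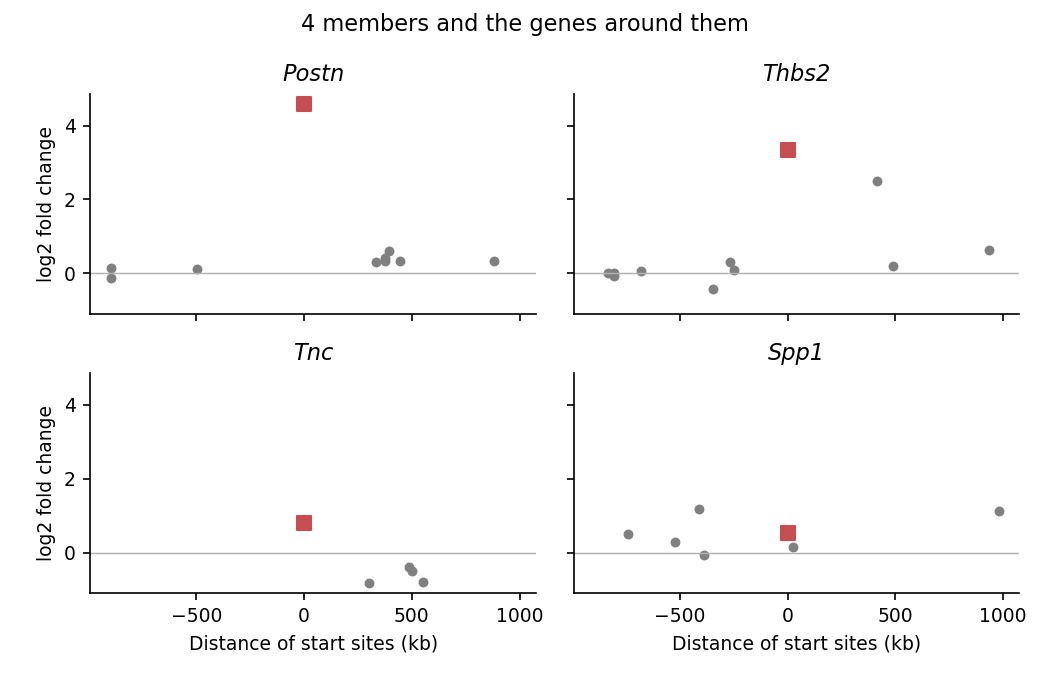
log2 fold change, KO-labelled library against WT, of 4 members (squares) and of the genes with starts within 1 Mb (grey circles), by distance in kb between start sites, positive in the direction of the member's transcription. *Postn* and *Thbs2* stand above all their neighbours, *Smoc2* at 2.49 is the single high neighbour of *Thbs2*, the 4 neighbours of *Tnc* lie below 0, and *Spp1* lies within the range of its neighbours.

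Relatives of the members were taken from a list of 24 other matricellular and related matrix genes. Of these, 8 passed the filter, with a median of 0.59. More than 2-fold higher were 3, *Smoc2*, *Ccn2* and *Ccn3*, and 2 were more than 2-fold lower, *Spock2* and *Ccn5*. The shares of all genes past the filter were 2.84% and 3.43%, here and beside each list below, markers included. *Smoc2*, *Ccn3* and *Spock2* passed the filter only through the library in which they were high. The related lists were chosen with earlier results of these data known, so nothing is read from their counts. *Ccn2*, which codes for connective tissue growth factor, was 17.5 FPKM in WT and 62.1 FPKM in the KO-labelled library, a log2 fold change of 1.77. *Ccn3* was 0.847 and 4.18 FPKM, a log2 fold change of 1.49. *Spock2*, which codes for a proteoglycan of the Sparc family, was 16.9 FPKM in WT and 0.092 FPKM in the KO-labelled library, a log2 fold change of -4.04. *Ccn5* was 6.01 and 2.37 FPKM, a log2 fold change of -1.06. *Ccn1*, the relative with the highest level, was 221 and 215 FPKM, a log2 fold change of -0.040. *Fstl1*, a further relative past the filter, was 91.5 and 158 FPKM, a log2 fold change of 0.79, and was named after its value was seen. Of the Sparc-related genes named here, *Sparc* had values alike, *Smoc2* and *Fstl1* had higher values and *Spock2* a lower one. *Smoc2* was near 0 in WT and *Spock2* in the KO-labelled library. The Ccn genes ran in both directions.

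Receptors and cell-surface partners of these proteins were measured for 18 genes, of which 12 passed the filter, with a median of 0.15. The single gene past the 2-fold line was *Lrp1*, the endocytic receptor that clears thrombospondins. It was 69.8 FPKM in WT and 144 FPKM in the KO-labelled library, a ratio of 2.06 and a log2 fold change of 1.03. *Itgb8*, at 1.53 and 3.44 FPKM, had a higher ratio, 2.26, but stood at 0.81 on the log2(FPKM + 1) scale. The most abundant was *Itgb1*, the beta chain shared by many matrix-binding integrins, at 153 and 247 FPKM, a log2 fold change of 0.69. *Itga5*, which pairs with it to bind fibronectin, was 51.6 and 55.5 FPKM, a log2 fold change of 0.10. Of the 12 genes, 8 had higher and 4 had lower values in the KO-labelled library. The 4 lower were *Itgb3* (-0.62), *Sdc4* (-0.57), *Cd47* (-0.34) and *Cd44* (-0.042). These, *Itga5* and *Itgb8* were named after their values were seen.

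Matrix partners, a list of 13 collagens, crosslinking enzymes and other matrix proteins, had 12 genes past the filter, with a median of 0.55 and 10 genes higher. More than 2-fold higher were *Col1a1*, at 9.66 and 273 FPKM (log2 fold change 4.69), and *Col1a2*, at 237 and 621 FPKM (1.38), which code for the chains of type I collagen. No partner past the filter was more than 2-fold lower. *Tgm2*, at 0.983 and 2.27 FPKM, had a ratio of 2.31 but a log2 fold change of 0.72, inside the 2-fold line. *Col3a1* had the highest mean of the list, at 347 and 519.9 FPKM, a log2 fold change of 0.58. *Bmp1*, whose protease activates the crosslinking enzyme Lox with the help of periostin, was 28.3 and 29.8 FPKM, and *Lox* was 396 and 366 FPKM. *Bmp1*, *Lox* and *Tgm2* were named after their values were seen.

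**Figure D5:**
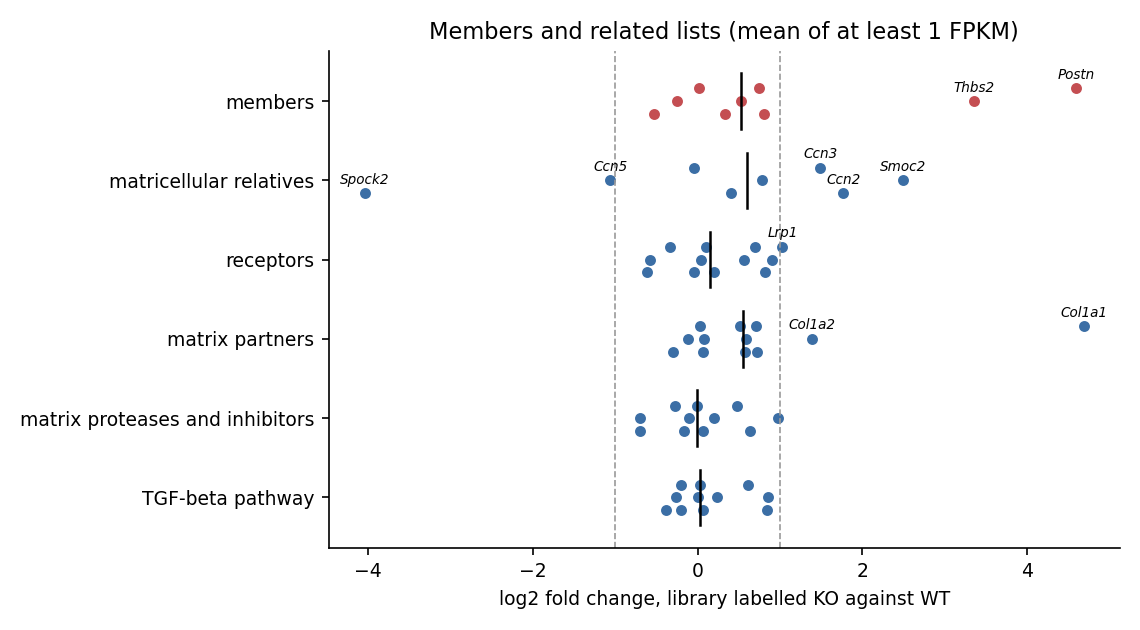
log2 fold change, KO-labelled library against WT, of each gene past the filter in the members and 5 related lists, with a black bar at each median and dashed lines at 2-fold. Genes past 2-fold are named, and the medians run from -0.012 (proteases and inhibitors) to 0.59 (relatives).

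The cell type of the libraries was checked against markers, and the levels of several differed between the libraries. Of 9 myoblast markers, 7 passed the filter, of which 4 were more than 2-fold lower in the KO-labelled library and 1, *Myf5*, was more than 2-fold higher. Their summed value was 261 FPKM in WT and 67.1 FPKM in the KO-labelled library. *Myod1* was 59.97 FPKM in WT and listed at 0 in the KO-labelled library, and *Pax7* was listed at 0 in both. *Des* was 97.6 and 3.84 FPKM, *Cdh15* was 16.6 and 0.701 FPKM and *Chrna1* was 15.3 and 0.917 FPKM. For 4 of the 7 markers these values go against the label of a myoblast line in the KO-labelled library. The other markers past the filter were *Itga7*, at 47.4 and 28.4 FPKM, *Ncam1*, at 14.7 and 13.0 FPKM, and *Myf5*, at 9.14 and 20.3 FPKM. The 0 of *Myod1* can be a failed estimate. Over all symbols, also those below the filter, 884 were listed at 0 in the KO-labelled library only and 764 in WT only. These counts give no rate of failed estimates at the WT level of *Myod1*. Its log2 fold change was -5.93, and 3 of the 10542 genes past the filter were below -5.75.

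Fibroblasts and smooth muscle cells also make many of these matrix proteins. Of 8 fibroblast markers, 3 passed the filter and 1, *Cd34* (136 and 10.6 FPKM), was more than 2-fold lower. The other markers past the filter were *Ly6a*, the most abundant, at 198 and 146 FPKM, and *Pdgfra*, at 10.8 and 12.3 FPKM. Below the filter, *Dcn* was 0.272 and 1.68 FPKM and *Dpt* was 0.041 and 0.493 FPKM, both higher in the KO-labelled library. The sum of the list, mostly *Ly6a* and *Cd34*, was 345.6 FPKM in WT and 171 FPKM in the KO-labelled library, and *Thy1* and *Lum* were listed at 0 in both. Of 6 smooth muscle markers, 4 passed the filter, and *Acta2* (213 and 544 FPKM) and *Tagln* (20.3 and 54.5 FPKM) were more than 2-fold higher while *Des* was lower. Their sum was 354 and 629 FPKM, and *Myh11*, a defining marker of mature smooth muscle, was 0.009 and 0.020 FPKM. Of 6 osteoblast markers, 2 passed the filter and *Phex* (1.83 and 5.31 FPKM) was more than 2-fold higher. *Runx2*, the most abundant, was 23.0 and 17.7 FPKM. Below the filter, *Bglap* was 1.09 FPKM in WT and 0.226 FPKM in the KO-labelled library, a lower value. The sums of the list were 25.9 and 23.3 FPKM, and *Alpl* and *Ibsp* were listed at 0 in both. The sums of 6 macrophage markers were 3.10 and 1.58 FPKM, mostly *Cd68* (2.85 and 1.06 FPKM), with *Ptprc*, *Adgre1* and *Itgam* at 0 in both, and those of 6 endothelial markers were 0.019 and 0.028 FPKM. The part of these marker differences in the values of *Postn*, *Thbs2* and the other members was not tested.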

How the data were processed

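RNA of 2 C2C12 libraries, WT and KO (n = 1 each), was analysed, with groups taken from the genotype labels. The deposited values name no unit and were taken as FPKM, as the authors' column totals differ. That low values step with transcript length was assumed for the depth and was not tested. Values such as 0.440 for *Postn* in WT are not whole numbers, which sets them apart from raw read counts. Neither feature sets them apart from TPM of part of the genes. A TPM table restricted to these genes would give the same ratios up to 1 factor per library. Per the submitters' processing notes, Trim Galore 0.6.6, STAR 2.7.9a and RSEM 1.3.3 were used. The notes list GRCm38 and the methods GRCm39. The labels describe an Illumina kit and the supplementary methods an MGI kit. The methods name expected counts and TPM as quantities computed with RSEM, and no source used here says which quantity was deposited.

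Each file held 21853 rows, and for 24 repeats of a symbol only the highest mean was used. Fold changes were log2 with a pseudocount of 1 FPKM. No statistical test between the lines was run. Rough fragment numbers came from the median of value times length within that window, over 52 genes in WT and 65 in the KO-labelled library. The window was set after the values were seen and bounds the depth. The numbers also depend on the annotated length and on the unit being FPKM. Positions were taken from GENCODE vM39 (GRCm39) for 10314 genes past the filter, and promoters from RefSeq (GRCm38.p6).

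The members and lists were chosen with earlier results of these data known. The rule was to name all members and, of the related lists, the genes past the filter beyond 2-fold and the gene of highest mean. Other genes of these lists and single cell type markers were named beyond it. *Des*, *Dcn* and *Ibsp* each stand on 2 lists. Protein features were not analysed here. The alternatives were pseudocounts of 0.1 and 5, median of ratios and upper quartile scaling, no filter, a filter at a mean of 5 FPKM and leaving out *Postn*. The fold change calculation was checked on simulated data, WT values with planted differences, without noise and in genes of high level only. That check covers the arithmetic and not low values such as those of *Postn* and *Thbs2* in WT. Scripts ran on Python 3.11.15 with matplotlib 3.10.9, scipy 1.17.1, pandas 2.3.3 and numpy 2.4.6.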

Additional observations from a re-analysis of the deposited data

How the results depend on the processing

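No paired analysis was possible because each line has 1 library and no test was run, and for the same reason no library could be left out. The count of members more than 2-fold higher was 2, and that of members more than 2-fold lower was 0, under each alternative in which they were counted. Several alternatives could not change these counts. The filter at 5 FPKM kept all 9 members, no filter added only *Tgfbi*, and the scaling factors were 1.0046 and 1.0189. The median of the members ran from 0.43 to 0.53. *Sparc* changed sign with upper quartile scaling, from 0.018 to -0.0089, by construction of the factor of 1.02. The log2 fold change of *Postn* was 5.98 with a pseudocount of 0.1, 2.84 with 5 and, chosen after seeing the data, 6.27 with none. That of *Thbs2* was 2.46 with a pseudocount of 5. *Tnc* passed the 2-fold line, at 1.46, only when the median of its neighbours was subtracted, also chosen after seeing the data. The other 70 of 76 recomputed values neither changed sign, crossed the 2-fold line nor moved beyond 1.5-fold. They include values that these settings could hardly change, and a pseudocount cannot change a sign. Over all genes, 299 were higher and 362 lower, and these counts became 102 and 176 when the pseudocount was 5, 145 and 221 when the filter was a mean of 5 FPKM, 410 and 471 when the pseudocount was 0.1, and 407 and 470 without one. The level of *Postn* in WT rests on roughly 38 fragments, and the size of its ratio is limited by them.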

Other observations

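Of 13 matrix proteases and inhibitors, 11 passed the filter, of which 5 were higher and 6 lower in the KO-labelled library, 0 were beyond 2-fold in either direction, and the median log2 fold change was -0.012. *Timp2*, a metalloproteinase inhibitor with the highest mean of the list, was 269 FPKM in WT and 281 FPKM in the KO-labelled library, a log2 fold change of 0.062. *Plau*, the urokinase-type plasminogen activator, was 10.0 and 20.6 FPKM and was chosen after its value was seen. Its ratio was 2.06, but its log2 fold change of 0.97 was inside the 2-fold line.

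Of 11 genes of the TGF-beta pathway, which induces many matricellular genes, all 11 passed the filter, 7 were higher and 4 lower, 0 were beyond 2-fold, and the median was 0.027. *Tgfb1*, the ligand and the gene of highest mean, was 62.2 FPKM in WT and 62.4 FPKM in the KO-labelled library, a log2 fold change of 0.0039. These values come from 1 library per line and were not tested.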
